A study of Mus musculus with 6 samples.

Results

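The major urinary protein (Mup) genes were examined in mouse liver as every row of the deposited table whose gene symbol starts with Mup and that held at least 1 count in any of 6 libraries. This rule found 44 of the 28880 rows. Of these, 21 are annotated as protein coding and 23 as pseudogenes, and no row with the symbol was without counts. All but 1 member lie on chromosome 4, where the table places them between positions 59964294 and 62069100, a stretch of 2104807 bases; the remaining member, Mup-ps22, lies on chromosome 11. The libraries, one per mouse, come from the total liver RNA of 3 acute ethanol-exposed mice and of 3 control mice, read in pairs of 150 bases. All were wild-type male C57BL/6J mice aged 6 to 8 weeks. The ethanol-exposed mice went without food for 12 h, were given ethanol once by mouth as a 50% (v/v) solution (6 g/kg), and were sampled 24 h later. The control mice received no ethanol, and whether they had been fasted is not stated, so an effect of ethanol cannot be told apart from one of fasting. The comparison asks how the transcripts of this gene cluster differed between ethanol-exposed and control livers, copy by copy and as a sum.

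Major urinary proteins are small lipocalins, barrel-shaped carriers of hydrophobic molecules, which hepatocytes secrete in large amounts and which pass through the kidney into urine, where they hold and release volatile pheromones. Their genes arose by repeated duplication. A central block holds nearly identical copies, each paired with a pseudogene, and more divergent members lie at its edges. In liver the family is known for higher expression in males and for its dependence on pulsed growth hormone acting through STAT5, with further effects of androgen, thyroid hormone and glucocorticoid.

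How alike the copies are sets what a count on one of them can mean, so the same 60 coding bases are shown first, read from GENCODE M21 transcripts and numbered from the first base of the start codon. Capitals mark the bases that differ from the most common sequence, which Mup9, Mup10, Mup16, Mup18, Mup19 and Mup22 carry without a difference. Mup1, Mup2, Mup11, Mup12, Mup14 and Mup15 share another sequence, as do Mup7 with Mup17 and Mup8 with Mup13, while Mup3, Mup5, Mup6, Mup20 and Mup21 each have their own.
Mup10, bases 212 to 271: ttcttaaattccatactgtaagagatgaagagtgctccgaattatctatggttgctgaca
Mup1, bases 212 to 271: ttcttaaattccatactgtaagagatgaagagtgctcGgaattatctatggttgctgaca
Mup17, bases 212 to 271: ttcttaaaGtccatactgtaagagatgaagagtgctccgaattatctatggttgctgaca
Mup13, bases 212 to 271: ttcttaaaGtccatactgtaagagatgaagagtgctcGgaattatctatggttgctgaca
Mup6, bases 209 to 268: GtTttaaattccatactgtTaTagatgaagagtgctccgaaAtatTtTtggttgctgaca
Mup5, bases 212 to 271: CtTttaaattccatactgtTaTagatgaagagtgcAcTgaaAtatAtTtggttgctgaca
Mup20, bases 215 to 274: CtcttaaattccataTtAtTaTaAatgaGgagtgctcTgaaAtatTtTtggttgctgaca
Mup21, bases 215 to 274: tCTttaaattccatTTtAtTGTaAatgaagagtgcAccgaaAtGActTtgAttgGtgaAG
Mup3, bases 224 to 283: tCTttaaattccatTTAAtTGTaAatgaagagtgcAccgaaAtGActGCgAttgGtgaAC
The first 4 lines differ from each other at no more than 2 bases, whereas Mup3 differs from the most common sequence at 20 of the 60 bases, Mup21 at 18 and Mup20 at 11.

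Over whole transcripts, 15 coding members were each at least 98% identical to 14 others, and Mup3, Mup5, Mup6, Mup9, Mup20 and Mup21 were so to none. The transcripts were also cut into every possible window of 150 bases, the length of 1 read. In Mup3, Mup5, Mup6 and Mup21, 100% of the windows occurred in no other gene. The share was 68.9% in Mup20, whose other windows recur in the pseudogene Mup-ps19, and 59.6% in Mup17. It was 0.900% in Mup19 and 0% in Mup22, so a single read of that length cannot be assigned to Mup22 by its sequence. The 16 coding members that share windows with other coding members are here called the central copies, and Mup3, Mup5, Mup6, Mup20 and Mup21 the distinct members. How the counting treated reads that fit several genes is not given in the sources used here, so the counts of single central copies are uncertain. A sum over the copies does not change where such reads were divided among them, but it would where they were dropped or counted on each copy.

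For 13 of the 21 coding members, RefSeq (GRCm38.p6) gives the promoter from 250 bases before to 50 after the gene's start. The 100 bases before the start are shown for Mup3, a distinct member, and for the central copies Mup2 and Mup18, with TATATAA in capitals.
Mup3, minus strand, within the window chr4:62087268-62087567: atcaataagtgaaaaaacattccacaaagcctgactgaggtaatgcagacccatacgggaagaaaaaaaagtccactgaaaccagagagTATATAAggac
Mup2, minus strand, within the window chr4:60139807-60140106: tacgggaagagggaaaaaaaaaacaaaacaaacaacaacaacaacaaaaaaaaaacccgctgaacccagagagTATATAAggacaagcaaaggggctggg
Mup18, minus strand, within the window chr4:61674045-61674344: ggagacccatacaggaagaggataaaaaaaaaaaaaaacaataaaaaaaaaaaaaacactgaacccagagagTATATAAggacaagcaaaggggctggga
TATATAA was read on the gene's strand in 12 of the 13 windows and in 2.20% of 32817 RefSeq promoters of the same length; it was searched for after the sequences had been seen. The STAT5 motif TTCNNNGAA, searched on both strands, was in 0 of the 13 windows and in 8.29% of all promoters, which says only that these letters are not in this stretch.

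Between 60514417 and 74210869 counts were assigned to genes per library. Counts are given as CPM, scaled to a common library total with edgeR's TMM factors, which lay between 0.768 and 0.836 for ethanol-exposed livers and between 1.26 and 1.27 for control livers. This scaling bears on every Mup value. Over 16717 tested genes the median log2 fold change was -0.04 with TMM and -0.71 with library size alone. Of the genes called with TMM, 1738 were higher and 2301 lower (43.0% higher); with library size alone the call fell on 846 and 5385 genes (13.6% higher). Fold changes are thus relative to the bulk of genes, and shares of all counts and ratios to albumin counts are given beside them. A share of all counts is the same scale as library size alone and moves with every other abundant transcript. The labelled tissue was checked on 15 hepatocyte markers, whose summed level was between 146986 and 154444 CPM with ethanol and between 78193 and 90824 CPM without. In bulk tissue, fewer cells of a type and less RNA per cell cannot be told apart. Triples of values are in the order of mouse 1, 2 and 3.

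As a sum, the 44 rows had a mean 1.71-fold higher in ethanol-exposed mice on the TMM scale, with overlapping groups. The means were close to equal with library size alone, that is, as a share of all counts. The sum was 96357, 51083 and 104920.2 CPM in the ethanol-exposed mice and 34888, 56961 and 55769 CPM in the control mice. Ethanol mouse 2 had the lowest sum of its group, below control mice 2 and 3, and control mouse 1 the lowest of all, so the groups overlapped. The log2 fold change of the sum was 0.78 ± 0.30 (SE), with means of 84119.8 ± 28929.5 and 49206 ± 12414 CPM (SD, n = 3 each). It was 0.09 ± 0.28 (SE) with library size alone.

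As a share of all counts, which is the scale of library size alone, the Mup rows made up 7.49, 4.27 and 8.05% in the ethanol-exposed mice and 4.41, 7.17 and 7.01% in the control mice. The means were 6.60% ± 2.04 and 6.20% ± 1.55 (SD, n = 3 each), a difference smaller than the spread within either group. Set against albumin, the main plasma protein, the summed Mup counts amounted to 104, 53.9 and 112% in the ethanol-exposed mice and 58.4, 114 and 112% in the control mice. On this ratio too the groups overlapped, and ethanol mouse 2 and control mouse 1 stood low. Alb itself was higher with ethanol on the TMM scale (log2 fold change 0.82 ± 0.13, SE, and 0.15 with library size alone). Ratios to albumin thus compare Mup with a transcript that also differed. Per length, Mup transcripts held between 8.75% and 15.5% of the summed FPKM of a library.

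**Figure D1:**
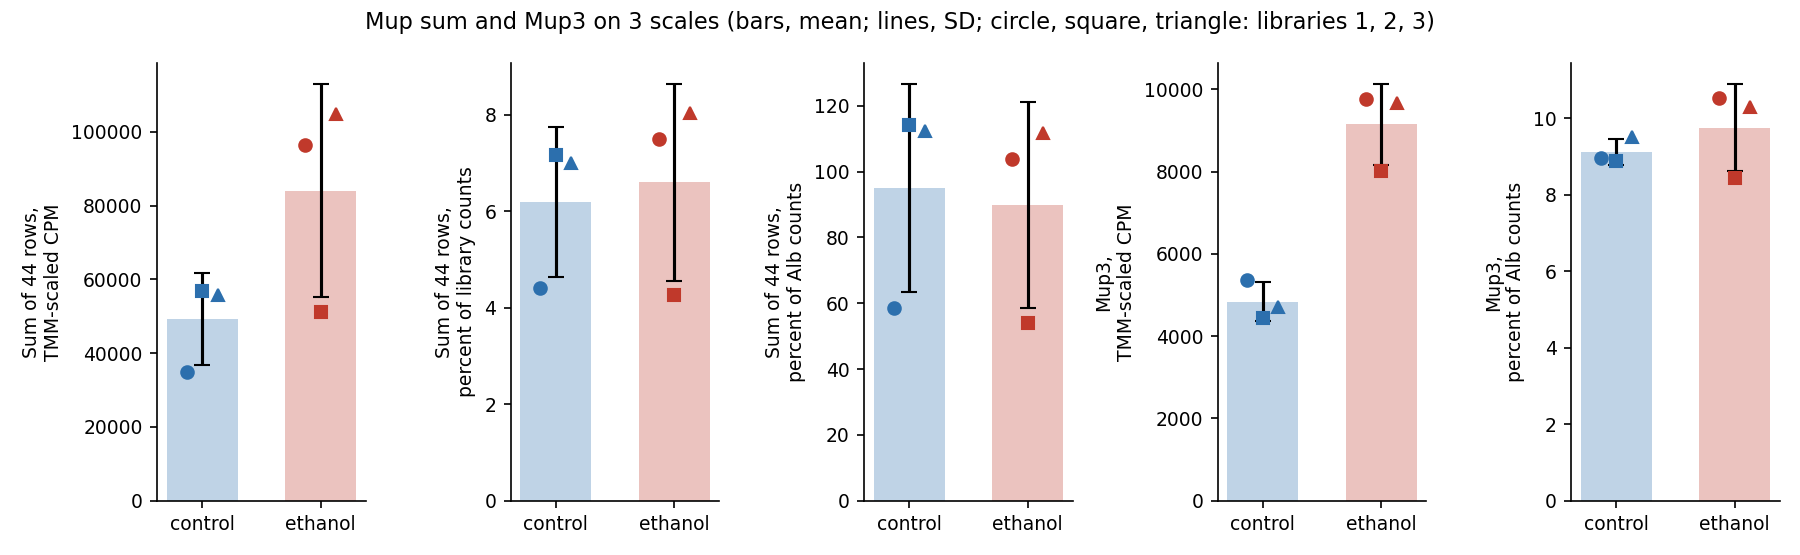
Summed Mup counts on 3 scales (TMM-scaled CPM, percent of all library counts, percent of Alb counts) and Mup3 on TMM-scaled CPM and as percent of Alb counts; points are single mice (circle, square and triangle for 1, 2 and 3), bars means and lines SD (n = 3 each). Mup3 separates the groups in CPM (8005 CPM or more against 5353 CPM or less) but not as percent of Alb counts, and the sum separates them on none of the 3 scales. Alb itself was higher with ethanol in CPM.

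The distinct members, whose reads can be told from those of other coding copies, were together higher in each ethanol-exposed mouse than in any control mouse on the TMM scale. Their sum was 18289, 12219.5 and 16178 CPM in the ethanol-exposed mice and 8001, 7888 and 7899 CPM in the control mice. The control mice lay within a narrow range and ethanol mouse 2 was the lowest of its group. The log2 fold change of this sum was 0.97 ± 0.17 (SE). As a share of all counts the distinct members made up 1.42, 1.02 and 1.24% in the ethanol-exposed mice and 1.01, 0.993 and 0.993% in the control mice, which again did not overlap, although ethanol mouse 2 was barely above the controls. Against albumin the same sum was 19.7, 12.9 and 17.2% in the ethanol-exposed mice and 13.4, 15.8 and 15.9% in the control mice, and the groups overlapped.

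Mup3 is the most abundant distinct member and the one with the least spread between mice. It was counted at 9765, 8005 and 9659.8 CPM in the ethanol-exposed mice and 5353, 4437 and 4717 CPM in the control mice. Every ethanol-exposed mouse was above every control mouse. Mup3 had a log2 fold change of 0.92 ± 0.14 (SE), with an adjusted p of 0.00224 (edgeR quasi-likelihood test, Benjamini-Hochberg over all genes tested). Mup3 passed the adjusted p but not the study's fold threshold of 1 on the log2 scale, which it just passed without ethanol mouse 2 (1.004, adjusted p 0.00349, edgeR). With library size alone the value was 0.25 with an adjusted p of 0.144 (edgeR). As a percentage of albumin counts Mup3 stood at 10.5, 8.44 and 10.3% in the ethanol-exposed mice and 8.96, 8.89 and 9.50% in the control mice, where the groups overlapped.

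Mup20 encodes darcin, a male urinary protein that attracts females. Its level was 8119, 3897 and 6182 CPM in the ethanol-exposed mice and 2445, 3068 and 2983 CPM in the control mice. The groups did not overlap, although ethanol mouse 2 was close to the highest control mouse. Mup20 was upregulated, with a log2 fold change of 1.10 ± 0.26 (SE) and an adjusted p of 0.0135 (edgeR). Without control mouse 1, the lowest, the adjusted p was 0.0568 (edgeR), and without ethanol mouse 1 the log2 fold change was 0.83, short of the fold threshold. Scaled by library size alone, the log2 fold change was 0.42 and the adjusted p 0.176. The pseudogene Mup-ps19, which shares 65.4% of its windows with Mup20, was counted at 2260.1, 987 and 1457 CPM in the ethanol-exposed mice and 673, 829.7 and 894 CPM in the control mice. As in Mup20, ethanol mouse 1 was highest and control mouse 1 lowest, with a log2 fold change of 0.97 ± 0.29 (SE) and an adjusted p of 0.0316 (edgeR). By library size alone these were 0.29 and 0.389. The adjusted p of Mup-ps19 was 0.0725 without ethanol mouse 1, 0.111, 0.0901 and 0.0744 without control mice 1, 2 and 3 in turn, and 0.0692 with the replicate number as a block (edgeR). Merged into 1 row, Mup20 and Mup-ps19 had a log2 fold change of 1.07 ± 0.27 (SE).

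The other distinct members were far less abundant and did not pass the test. Mup21, the closest relative of Mup3 at 95.0% identity, had 316, 244 and 202 CPM in the ethanol-exposed mice and 125, 203 and 93.5 CPM in the control mice. Only control mouse 2 reached into the ethanol range, and the log2 fold change was 0.86 ± 0.30 (SE) with an adjusted p of 0.0523 (edgeR). Without control mouse 2 these became 1.22 and 0.0172, and without ethanol mouse 3 1.01 and 0.0225.

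Mup5, which is known mainly from glands other than the liver, had 86.7, 72.5 and 134 CPM in the ethanol-exposed mice and 77.6, 179.9 and 104 CPM in the control mice. It was one of only 2 coding members with a value below 0 on the TMM scale, -0.30 ± 0.34 (SE) with an adjusted p of 0.502 (edgeR), and its sign turned without control mouse 2 (0.10). Scaled by library size alone Mup5 was at -0.98 with an adjusted p of 0.0389 (edgeR), and in limma on log2(FPKM + 1) at -0.93 with 0.0469. Mup6 was nearly silent at 1.77, 0.981 and 0.935 CPM in the ethanol-exposed mice and 0.927, 0.302 and 0.777 CPM in the control mice. Its groups just failed to overlap, by less than the spread within the control mice, and its log2 fold change was 0.87 ± 0.50 (SE) (adjusted p 0.197, edgeR).

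**Figure D2:**
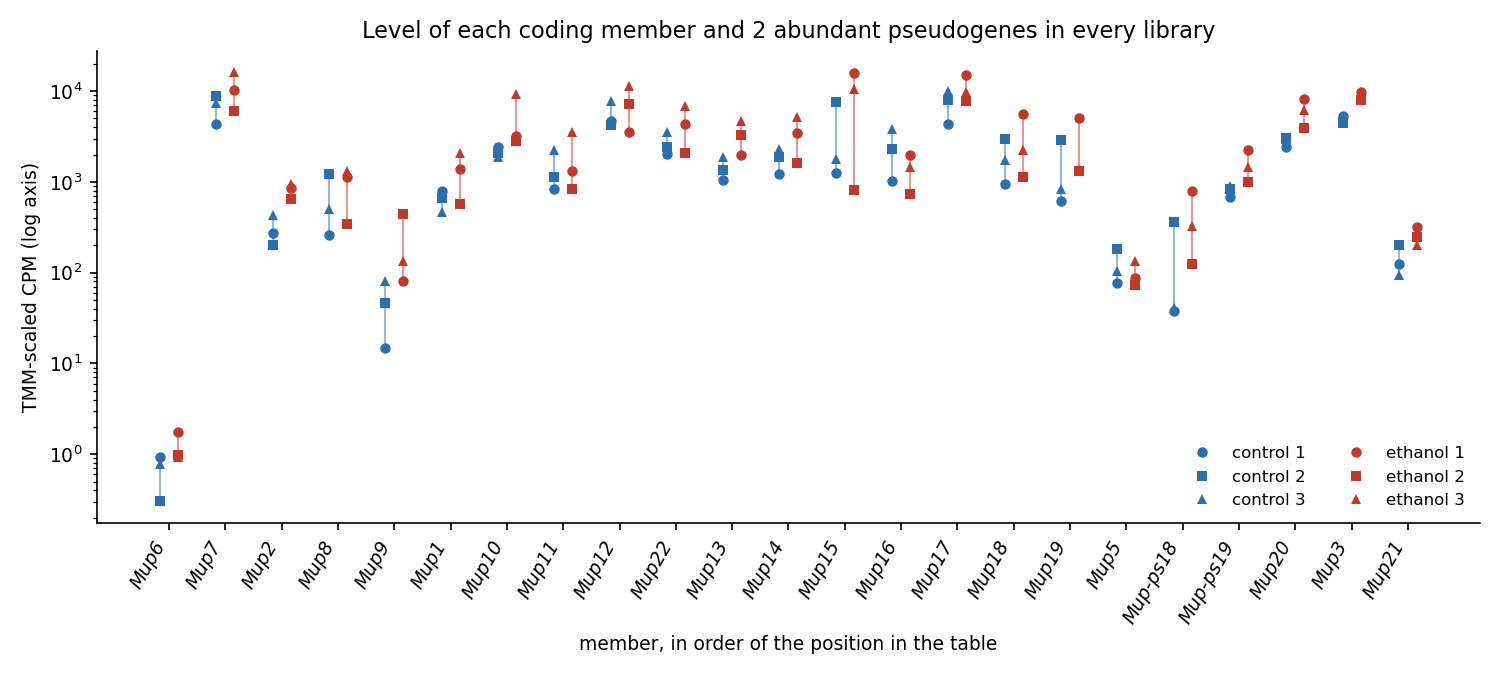
TMM-scaled CPM (log axis) of the 21 coding members and of Mup-ps18 and Mup-ps19 in each library, in the order in which the table places them; each point is 1 mouse, and the lines span a group. Mup3 points lie close together within each group, whereas Mup15 spans 805 to 15639 CPM among ethanol-exposed mice.

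The central copies carried most of the Mup signal. Their sum was 74808, 37736 and 86858 CPM in the ethanol-exposed mice and 26075, 47817 and 46867 CPM in the control mice. Control mouse 1 and ethanol mouse 2 were lowest, and the groups overlapped. The log2 fold change of this sum was 0.72 ± 0.35 (SE), and against albumin it was 80.6, 39.8 and 92.5% in the ethanol-exposed mice and 43.7, 95.8 and 94.4% in the control mice.

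Compared per length, the scale on which genes can be ranked, Mup17 had the highest median over the 6 libraries, with 5574 to 12885 FPKM (median 8909.5). Mup7 followed at 4541 to 11207 FPKM (median 7797). The distinct member Mup3 was next at 5396 to 7305 FPKM (median 6491). Below it came Mup12 at 2799 to 9874 FPKM (median 6029), Mup15 at 679 to 12255 FPKM (median 5206), Mup20 at 3117 to 6342 FPKM (median 3839) and Mup22 at 1870.1 to 5702 FPKM (median 3501). The ranges of neighbours in this order overlapped in each case, so the order of single copies is not resolved by 6 mice. At the other end of the coding members, Mup9 had 11.7 to 228 FPKM (median 51.0) and Mup6 0.350 to 1.27 FPKM (median 0.827).

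Of the central copies, Mup2 and Mup13 were upregulated. Mup2 was counted at 853, 651 and 943 CPM in the ethanol-exposed mice and 270.4, 202 and 431 CPM in the control mice. All ethanol-exposed mice were above all control mice. Its log2 fold change was 1.44 ± 0.29 (SE) with an adjusted p of 0.00694 (edgeR), and the call held with each library left out in turn. The adjusted p was 0.0545 with ethanol mouse 2 and control mouse 1 both left out. Scaled by library size alone, Mup2 passed the adjusted p (0.0466, edgeR) but not the fold threshold (0.76).

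Mup13 was counted at 1976, 3325 and 4643 CPM in the ethanol-exposed mice and 1047, 1345 and 1869 CPM in the control mice. Here too the groups did not overlap, by a margin of 1976 against 1869 CPM. Its log2 fold change was 1.22 ± 0.34 (SE) with an adjusted p of 0.0238 (edgeR). The adjusted p was 0.0551 without ethanol mouse 2, 0.0863 without control mouse 1, 0.0855 without control mouse 2 and 0.192 with library size alone. Without ethanol mouse 3 the log2 fold change was 0.91, short of the fold threshold. In Mup2 and Mup13, only 9.25% and 26.2% of the windows belong to no other gene.

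Several central copies had larger or similar differences that did not pass the test. Mup10 had 3237, 2805 and 9229 CPM in the ethanol-exposed mice and 2420.2, 2093 and 1887 CPM in the control mice. All ethanol-exposed mice were above all control mice, ethanol mouse 3 by far, and the log2 fold change was 1.26 ± 0.44 (SE) with an adjusted p of 0.0555 (edgeR). Without ethanol mouse 3 these were 0.51 and 0.0115, whereas Mup10 was a DEG without ethanol mouse 1 (1.49 and 0.0486) and without ethanol mouse 2 (1.54 and 0.0282). Mup9 had 80.5, 437 and 133 CPM in the ethanol-exposed mice and 14.8, 46.0 and 80.4 CPM in the control mice. Ethanol mouse 1 was barely above control mouse 3, and ethanol mouse 2 stood far above the rest, with a log2 fold change of 2.21 ± 0.78 (SE) and an adjusted p of 0.0553 (edgeR). Without ethanol mouse 2 these were 1.17 and 0.194, without ethanol mouse 1 2.60 and 0.0460, and without ethanol mouse 3 2.46 and 0.0328.

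Mup1, whose protein has been linked to glucose metabolism when it circulates in blood, had 1373, 570.1 and 2105 CPM in the ethanol-exposed mice and 794, 670 and 466 CPM in the control mice. Ethanol mouse 2 fell among the control mice, and the log2 fold change was 1.07 ± 0.44 (SE) (adjusted p 0.0878, edgeR). Mup14 had 3443, 1601 and 5249.6 CPM in the ethanol-exposed mice and 1207, 1867 and 2309 CPM in the control mice, again with ethanol mouse 2 among the control mice, and a log2 fold change of 0.94 ± 0.43 (SE) (adjusted p 0.115, edgeR). Without ethanol mouse 2 both were DEGs, Mup1 at 1.43 and Mup14 at 1.27 with adjusted p-values of 0.00995 and 0.0232 (edgeR), and without ethanol mouse 3 they were at 0.61 and 0.50. With DESeq2 in place of edgeR, Mup9, Mup1, Mup10, Mup14 and Mup21 had adjusted p-values of 0.0404, 0.0231, 0.00660, 0.0431 and 0.0144.

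Mup16 had the lowest log2 fold change of the coding members. It had 1971, 736 and 1471 CPM in the ethanol-exposed mice and 1027, 2321 and 3857 CPM in the control mice. Control mice 2 and 3 were highest and ethanol mouse 2 lowest, but control mouse 1 lay between the ethanol-exposed mice. The log2 fold change was -0.79 ± 0.51 (SE) with an adjusted p of 0.250 (edgeR), and -1.47 with 0.0394 when library size alone was used. On the TMM scale it was -0.27 without control mouse 3, without ethanol mouse 2 -0.49 and without control mouse 1 -1.15. Against albumin the groups overlapped as well, at 2.13, 0.776 and 1.57% in the ethanol-exposed mice and 1.72, 4.65 and 7.77% in the control mice.

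The remaining central copies, Mup7, Mup8, Mup11, Mup12, Mup15, Mup17, Mup18, Mup19 and Mup22, had overlapping groups, log2 fold changes from 0.42 (Mup12) to 1.35 (Mup15) and adjusted p-values from 0.201 to 0.571 (edgeR). With library size alone Mup7, Mup8, Mup11, Mup12, Mup17 and Mup18 had values below 0, from -0.26 to -0.01. Mup17, with the highest median level per length, was counted at 15030.3, 7833 and 9804 CPM in the ethanol-exposed mice and 4367, 8052 and 10152 CPM in the control mice, where control mouse 3 was second only to ethanol mouse 1. Mup7 had 10166, 6011 and 16148 CPM in the ethanol-exposed mice and 4358, 8809 and 7427 CPM in the control mice, with ethanol mouse 2 below control mice 2 and 3. Mup22, none of whose windows is its own, had 4341, 2064 and 6847 CPM in the ethanol-exposed mice and 2049, 2445 and 3546 CPM in the control mice, and it was a DEG without ethanol mouse 2 (1.05, adjusted p 0.0349, edgeR).

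Counted over the family, few members were called, and coding members had positive values in 19 of 21 cases with TMM and in 13 of 21 with library size alone. DEGs needed an adjusted p below 0.05 together with a log2 fold change above 1 or below -1. Among the 21 coding members 3 were DEGs with ethanol higher (Mup2, Mup13 and Mup20), against 10.4% of all genes tested. With TMM 0 of the 21 were called lower by edgeR and 0 had an unadjusted p under 0.05 with ethanol lower, and DESeq2 with its own size factors called 0, while 13.8% of all genes were called. Scaled by library size alone, 0 coding members were called higher by edgeR (1 at an unadjusted p under 0.05) and 1 lower (Mup16), against 5.06% and 32.2% of all genes. Both limma fits called 0 higher and 0 lower, where they called 408 and 735 of all 16717 genes higher and 1704 and 4964 lower. At the adjusted p alone and with TMM, 4 coding members passed as higher (with Mup3), against 21.5% of all genes, and again 0 as lower, where 21.5% of all genes passed. The balance turned with library size alone, where 1 passed as higher (Mup2) and 2 as lower (Mup5 and Mup16), against 7.39% and 48.3% of all genes. The groups did not overlap, with ethanol higher, in 7 of the 21 coding members against 28.0% of all genes, and with ethanol lower in 0 of 21 against 31.0%. The median log2 fold change of the 21 coding members was 0.86, from -0.79 to 2.21, against -0.04 for all genes tested. In limma on log2(FPKM + 1) it was above 0 in 12 of 21. Of members of any kind, 3 of 39 tested were called higher in all libraries. This number was 10 without ethanol mouse 2, 1 without control mouse 1 and 5 without ethanol mouse 3. Of all genes, 1693 of 17528, 1519 of 17279 and 1920 of 17622 were called higher in these fits. The number of members called lower, 2 in all libraries, was 4 without ethanol mouse 1 and 5 without ethanol mouse 3. Of all genes, 2094 of 17526 and 2902 of 17622 were called lower there.

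**Figure D3:**
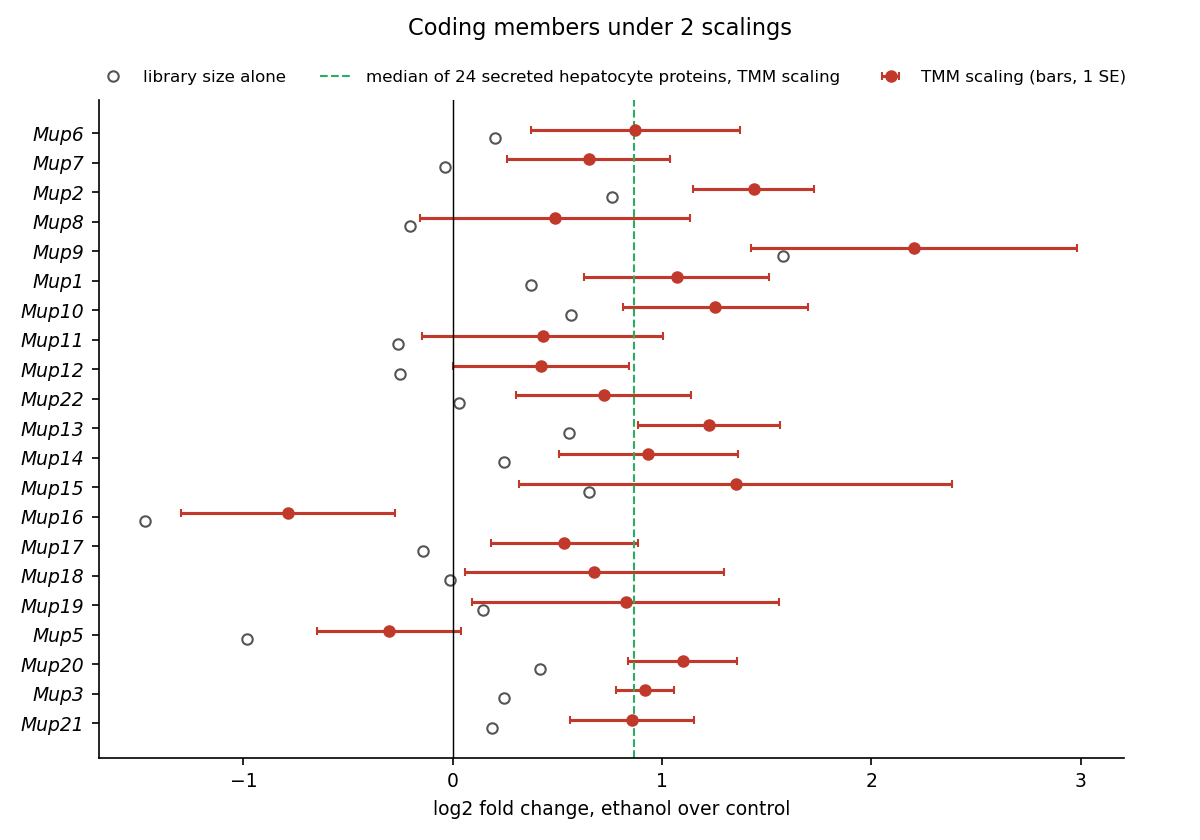
Log2 fold change (ethanol over control) of each coding member with TMM scaling (filled, bars 1 SE) and with library size alone (open); the dashed line is the median of 24 secreted hepatocyte proteins with TMM scaling, 0.87. With TMM 19 of 21 members lie above 0, with library size alone 13 of 21, and Mup16 and Mup5 lie below 0 under both scalings.

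The central copies differed strongly between mice of the same group. The SD of log2 CPM within groups had a median of 0.72 over the 16 central copies and 0.46 over the 5 distinct members, against 0.17 over the 7015 genes with a mean of at least 10 CPM. All 16 central copies exceeded the 90th percentile of those genes, 0.43, as did 3 distinct members. Mup3 was below their median at 0.15, and Mup20 was at 0.40.

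Mup15 had the largest within-group SD of log2 CPM of the 21 coding members, 1.91. It was counted at 15639, 805 and 10529 CPM in the ethanol-exposed mice and 1249.5, 7557 and 1769.8 CPM in the control mice. Ethanol mouse 2 had less than any control mouse, ethanol mice 1 and 3 had more than any, and the highest value was 19.4 times the lowest, against 29.6 times in Mup9. Only 9.28% of its windows belong to no other gene. Its log2 fold change of 1.35 ± 1.04 (SE) had an adjusted p of 0.325 (edgeR).

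Mup18 and Mup19, neighbours on the chromosome, had their peaks in the same mice. Mup18 had 5647, 1128 and 2243 CPM in the ethanol-exposed mice and 943, 2979 and 1724 CPM in the control mice. Mup19 had 5024, 1316 and 1360.1 CPM in the ethanol-exposed mice and 611, 2901 and 829.6 CPM in the control mice. In both, ethanol mouse 1 and control mouse 2 were the highest of their groups, as they were for Mup15. The pseudogene Mup-ps18, none of whose windows recurs in another gene, had 802, 125 and 323 CPM in the ethanol-exposed mice and 37.6, 366 and 40.6 CPM in the control mice. It too was highest in ethanol mouse 1 and control mouse 2, and its highest value was 21.3 times its lowest. Its log2 fold change was 1.49 ± 1.02 (SE) with an adjusted p of 0.271 (edgeR); without control mouse 2 they were 3.41 and 0.0272.

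**Figure D4:**
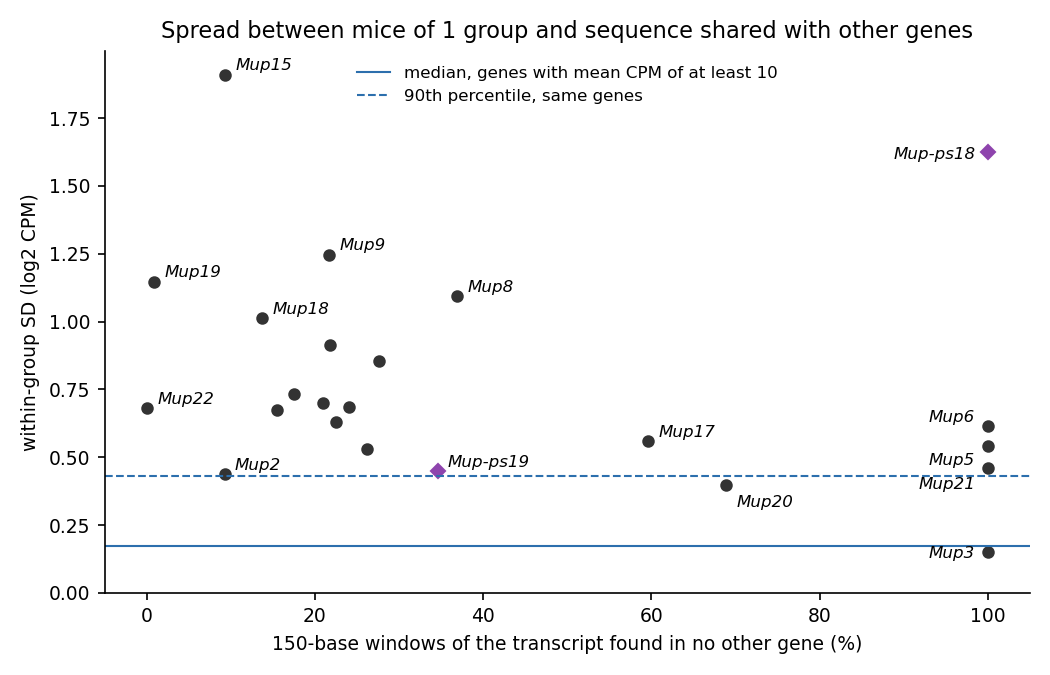
Within-group SD of log2 CPM of each coding member (circles) and of Mup-ps18 and Mup-ps19 (diamonds) against the percent of 150-base windows found in no other gene; lines mark the median (0.17) and 90th percentile (0.43) of genes with a mean of at least 10 CPM. The 16 central copies lie above the dashed line, Mup3 lies below the median, and Mup-ps18 has a large SD (1.62) although 100% of its windows are its own.

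The low sums of ethanol mouse 2 and control mouse 1 were spread over many copies. Ethanol mouse 2 was the lowest ethanol-exposed mouse in 16 of the 21 coding members and the highest in 1, Mup9. Control mouse 1 was the lowest control mouse in 14 of 21 and the highest in 4. Control mouse 1 was also the lowest control mouse in 14 of 18 male-biased liver genes, among them Cyp7b1, an oxysterol hydroxylase, at 333, 209 and 132 CPM in the ethanol-exposed mice and 140.3, 380 and 327 CPM in the control mice. Ethanol mouse 2 was the lowest of its group in 3 of these 18 genes and ethanol mouse 3 in 15. The part of these differences in the Mup sums was not tested.

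Within the Mup sum, which needs no scaling, the central copies held between 73.9% and 84.0% of the counts, the distinct members between 13.9% and 23.9% and the pseudogenes between 1.80% and 3.38%. Mup3 held 10.1, 15.7 and 9.21% in the ethanol-exposed mice and 15.3, 7.79 and 8.46% in the control mice. Its share was highest in ethanol mouse 2 and control mouse 1, the mice with the lowest sums. Mup15 held 16.2, 1.58 and 10.04% in the ethanol-exposed mice and 3.58, 13.3 and 3.17% in the control mice, and Mup12 held 3.71, 14.3 and 10.8% in the ethanol-exposed mice and 13.3, 7.34 and 13.9% in the control mice. Mup15 held more than Mup12 in ethanol mouse 1 and control mouse 2, and less in the other mice.

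The shares of 3 of the 21 coding members, singled out after the shares had been seen, separated the groups. Mup2 held 0.885, 1.27 and 0.899% in the ethanol-exposed mice and 0.775, 0.355 and 0.773% in the control mice, with all ethanol-exposed mice above all control mice. Mup16 held 2.05, 1.44 and 1.40% in the ethanol-exposed mice and 2.94, 4.07 and 6.92% in the control mice, and Mup5 held 0.0899, 0.142 and 0.127% in the ethanol-exposed mice and 0.222, 0.316 and 0.186% in the control mice. In both, all ethanol-exposed mice were below all control mice. With 3 mice per group, some of 21 members can separate by chance, and these differences in share were not tested.

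**Figure D5:**
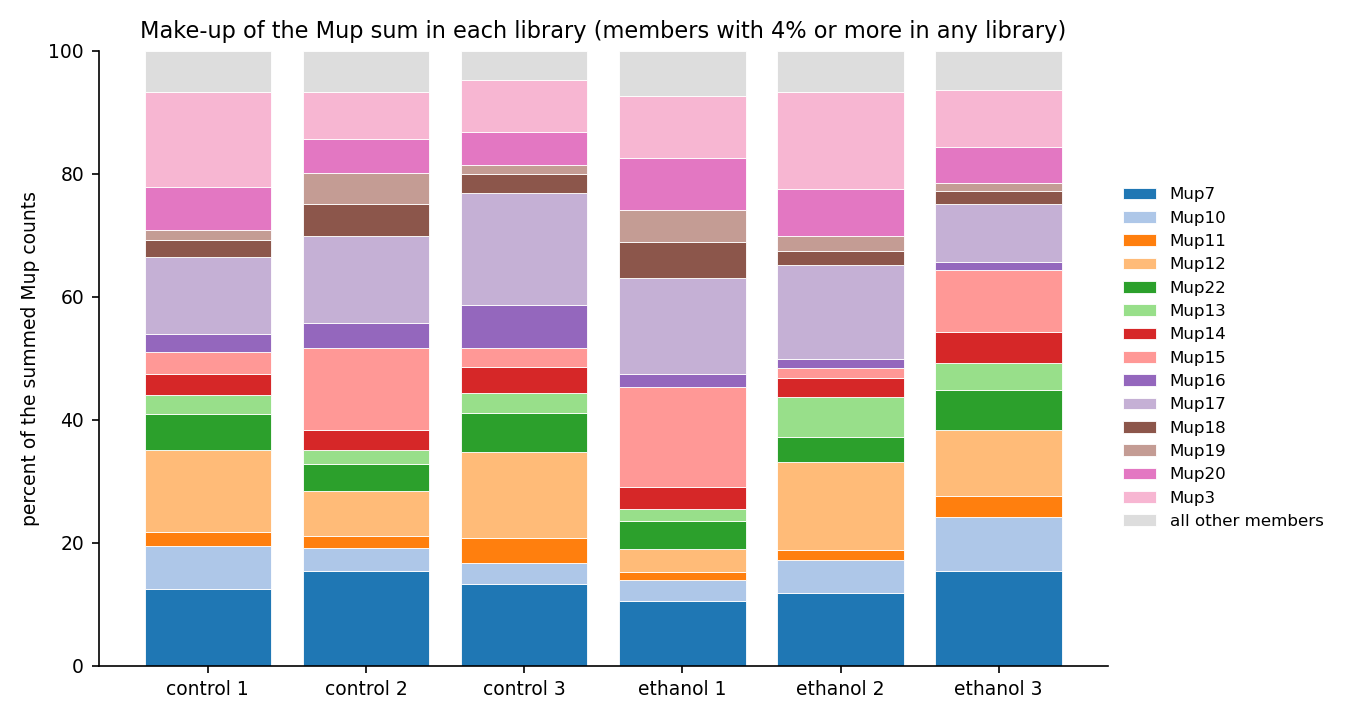
Percent of the summed Mup counts held by each member that reached 4% in any library; each bar is 1 mouse and grey holds all other members. Mup15 takes 16.2% in ethanol mouse 1 and 1.58% in ethanol mouse 2, while Mup16 is between 1.40% and 2.05% in ethanol-exposed mice and between 2.94% and 6.92% in control mice.

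The most counted pseudogenes of the cluster were Mup-ps18, Mup-ps19, Mup-ps20 and Mup-ps21, and the others had at most 656 counts in a library, a value of Mup-ps13. Mup-ps20 had 30.4, 0 and 52.2 CPM in the ethanol-exposed mice and 65.6, 28.2 and 30.4 CPM in the control mice. Mup-ps21 had 133, 0 and 11.8 CPM in the ethanol-exposed mice and 8.40, 0 and 8.18 CPM in the control mice. Both were at 0 in ethanol mouse 2, and their groups overlapped. Of the 23 pseudogenes, 18 passed the filter on low counts. The 5 that did not, Mup-ps1, Mup-ps5, Mup-ps9, Mup-ps22 and Mup-ps23, had counts only in control mice, at most 189 in a library.

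Mup-ps2 and Mup-ps3 were the members called as lower, with adjusted p-values of 0.00860 and 0.00883 (edgeR). Mup-ps2 was counted 0, 0 and 0 times in the ethanol-exposed mice and 14, 30 and 29 times in the control mice. Mup-ps3 was counted 0, 0 and 0 times in the ethanol-exposed mice and 15, 26 and 19 times in the control mice. Of the windows of Mup-ps2, 38.3% belong to no other gene. Both passed the filter only through the control mice, so they had to differ. Against a floor of 3 counts per library, they were at least 5.73-fold and 4.69-fold lower in ethanol-exposed mice.

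The transcript of Mup-ps3 and that of Mup-ps11 share 100% of their 150-base windows, and Mup-ps11 was counted 0, 0 and 451 times in the ethanol-exposed mice and 32, 58 and 10 times in the control mice. Ethanol mouse 3 thus had 451 counts on one row and 0 on the other, while the control mice had counts on both. With both rows merged, the log2 fold change was 2.08 with an adjusted p of 0.392 (edgeR), and Mup-ps3 was no longer called.

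Mup-ps13, with 87.6% of its windows its own, was steadier. It had 4.97, 3.91 and 6.01 CPM in the ethanol-exposed mice and 6.99, 7.18 and 6.78 CPM in the control mice. Every ethanol-exposed mouse was below every control mouse, with a log2 fold change of -0.49 ± 0.20 (SE) and an adjusted p of 0.0781 (edgeR). Scaled by library size alone they were -1.17 and 0.00150, and the adjusted p was 0.0433 with upper quartile scaling, 0.0440 with DESeq2, 0.000518 with limma on log2(FPKM + 1) and 0.0126 without ethanol mouse 3. The other 13 pseudogenes tested had log2 fold changes from -1.91 to 3.12 and adjusted p-values of 0.192 or more (edgeR).

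Of 28 genes of growth hormone signalling and of known regulators of Mup transcription, 8 were upregulated and 2 downregulated, against 10.4% and 13.8% of all genes. With library size alone these were 7 and 7, against 5.06% and 32.2%. The receptor and the transcription factors downstream of it showed small differences. Ghr, the growth hormone receptor, had 375, 383 and 271 CPM in the ethanol-exposed mice and 359.7, 393 and 416 CPM in the control mice, a log2 fold change of -0.18 ± 0.16 (SE) and an adjusted p of 0.371 (edgeR). Stat5b, its main signal transducer in male liver, had a log2 fold change of -0.11 ± 0.17 (SE) (adjusted p 0.630, edgeR), and Stat5a one of -0.47 ± 0.14 (SE) (adjusted p 0.0317, edgeR), short of the fold threshold. By library size alone Ghr was at -0.85, Stat5b at -0.77 and Stat5a at -1.14, with adjusted p-values of 0.00527, 0.0123 and 0.000776 (edgeR).

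Among the feedback inhibitors and targets of growth hormone in this list, Socs2, Socs3 and Cish were upregulated. Socs2, which STAT5 induces and which dampens the receptor, had 57.3, 29.8 and 64.2 CPM in the ethanol-exposed mice and 2.11, 1.16 and 1.87 CPM in the control mice. The groups were far apart, and its log2 fold change was 4.88 ± 0.38 (SE) with an adjusted p of 0.000198 (edgeR). Socs3, an inhibitor also induced by interleukin 6, had a log2 fold change of 4.60 ± 0.29 (SE) and Cish, another STAT5 target, of 3.37 ± 0.44 (SE), with adjusted p-values of 9.88e-05 and 0.00134 (edgeR). Socs1, a related inhibitor, had a log2 fold change of 2.10 ± 0.78 (SE) and an adjusted p of 0.0637 (edgeR), and Igfals, which carries IGF1 in blood, had a log2 fold change of -0.45 ± 0.22 (SE) and an adjusted p of 0.141 (-1.11 with 0.00819 by library size alone). Igf1, the main growth factor made by liver under growth hormone, had 528, 524 and 727 CPM in the ethanol-exposed mice and 302, 301 and 306 CPM in the control mice. All ethanol-exposed mice were above all control mice, and the log2 fold change was 0.97 ± 0.15 (SE) with an adjusted p of 0.00262 (edgeR), short of the fold threshold. Igf1, scaled by library size alone, was at 0.30 (adjusted p 0.114, edgeR).

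The other upregulated genes of this list were Igfbp1, a binding protein of IGF1 that rises in fasting, at 3.69, the acute-phase factor Cebpb at 3.30, the corepressor Trim24 at 2.01, Onecut1 at 1.11 (0.43 with an adjusted p of 0.114 when scaled by library size alone, edgeR) and Cux2, a repressor of male-biased genes in female liver, at 3.47 on the log2 scale (adjusted p from 6.40e-05 to 0.0194, edgeR). Downregulated were Bcl6, a repressor of STAT5 targets in male liver, at -1.06, and Zhx2. Zhx2 is a transcription factor on which Mup expression in adult liver is known to depend. It had 2.85, 4.35 and 4.58 CPM in the ethanol-exposed mice and 15.02, 12.9 and 9.91 CPM in the control mice. All ethanol-exposed mice were below all control mice, and the log2 fold change was -1.68 ± 0.24 (SE) with an adjusted p of 0.00196 (edgeR). The glucocorticoid receptor Nr3c1 and the thyroid hormone receptor Thrb had log2 fold changes of 0.66 and -0.19, with adjusted p-values of 0.0869 and 0.660 (edgeR).

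Of 18 male-biased liver genes that depend on growth hormone, as the Mup genes do, 2 were upregulated and 3 downregulated, against 10.4% and 13.8% of all genes, and the median log2 fold change was -0.03. With library size alone, 0 were upregulated and 5 downregulated by edgeR, against 5.06% and 32.2%; on the TMM scale 3 had an unadjusted p under 0.05 with ethanol higher. Elovl3, an elongase of very long fatty acids, had 40.5, 26.4 and 22.9 CPM in the ethanol-exposed mice and 622, 766 and 739 CPM in the control mice. It was the largest fall of the list, at -4.57 ± 0.25 (SE) with an adjusted p of 7.64e-05 (edgeR). Hsd3b5, a steroid-metabolising enzyme of male liver, had 56.6, 62.2 and 11.3 CPM in the ethanol-exposed mice and 167, 170.3 and 182 CPM in the control mice (adjusted p 0.0235, edgeR). Cyp2u1 fell by 1.79 on the log2 scale (adjusted p 0.000216, edgeR). Cyp2d9, a steroid hydroxylase of male liver, was higher by 1.19 and Egfr by 1.31 on the log2 scale, with adjusted p-values of 0.00316 and 0.00152 (edgeR).

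Of 16 female-biased genes 12 passed the filter; Cux2, Cyp2a4 at 3.54 and Acot3 at 2.38 were higher, and Cyp3a41b at -3.70 was lower (log2 scale, adjusted p 0.00357, 0.00908 and 0.0393 for the last 3, edgeR). These 3 and 1 of 12 stand against 10.4% and 13.8% of all genes. Cyp2a4, a steroid hydroxylase of female liver, had 6.74, 8.08 and 2.99 CPM in the ethanol-exposed mice and 0.511, 0.184 and 0.826 CPM in the control mice. Cyp3a41b belongs to a family of similar genes, and how far it shares sequence with them was not examined.

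Abundant proteins that hepatocytes secrete, the class to which the Mup proteins belong, had a log2 fold change above 0 in 24 of 24 cases with TMM and in 18 of 24 with library size alone. Of these, 9 were upregulated, against 10.4% of all genes, and 2 with library size alone, against 5.06%. The median was 0.87 with TMM. With TMM 0 were called as downregulated by edgeR and 0 had an unadjusted p under 0.05 with ethanol lower, whereas library size alone gave Apob -0.57 and Trf -0.40 with adjusted p-values of 0.0172 and 0.0177 (edgeR), short of the fold threshold. Alb had 92779, 94791 and 93901 CPM in the ethanol-exposed mice and 59735, 49938 and 49630.2 CPM in the control mice. All ethanol-exposed mice were above all control mice, and the log2 fold change was 0.82 ± 0.13 (SE) with an adjusted p of 0.00273 (edgeR). The upregulated genes were those of the fibrinogen chains Fga, Fgb and Fgg, the haem carrier Hpx, the lipoprotein component Apoa1, Vtn, Serpina3k, Rbp4 and Ambp, with values up to 2.30 in Fgg on the log2 scale. Ethanol mouse 3 was the highest mouse in each of these genes except Rbp4, in which it was the lowest of its group. The value of the Mup sum, 0.78, lay below the median of this list.

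Of 17 other lipocalins, 13 had a row in the table and 11 were tested, of which 6 were upregulated and 2 downregulated, against 10.4% and 13.8% of all genes. By library size alone these were 3 and 2, against 5.06% and 32.2%, and Orm2, Rbp4 and Ambp were at 1.02, 0.46 and 0.40 with adjusted p-values of 0.0604, 0.0206 and 0.0886 (edgeR). Besides Rbp4 and Ambp, those upregulated with TMM were the acute-phase proteins Orm1, Orm2 and Orm3 at 2.04, 1.70 and 5.91 on the log2 scale, and Lcn2, a lipocalin that binds bacterial iron carriers, at 7.32 (adjusted p 0.00851, 0.0154, 8.86e-05 and 0.0188, edgeR). Lcn2 had 49.7, 36.4 and 2649.7 CPM in the ethanol-exposed mice and 2.70, 6.59 and 7.87 CPM in the control mice. Ethanol mouse 3 stood far above the rest, and it was also the highest in Orm1 and Orm2 but the lowest of its group in Orm3. Ptgds, a prostaglandin synthase, and Lcn12, at no more than 0.405 CPM in any mouse, were lower at -1.59 and -3.54. Lcn12 had 0, 0 and 0.0916 CPM in the ethanol-exposed mice. It passed the filter on low counts only through the control mice, so it had to differ. Orm1, Orm2 and Orm3 are related genes, and how far their transcripts share sequence was not examined.

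Within 500000 bases of the cluster lie 26 rows of other genes, 5 of them inside it. Of the 21 tested, 3 were downregulated, against 13.8% of all genes, and 11 with library size alone, against 32.2%. Of the same rows 7 had values above 0 (4 with library size alone), and the median log2 fold change was -0.41. As upregulated, 0 were called by edgeR and 2 had an unadjusted p under 0.05. Hdhd3, of the haloacid dehalogenase family, had 3.15, 5.12 and 3.02 CPM in the ethanol-exposed mice and 21.2, 21.1 and 24.1 CPM in the control mice. All ethanol-exposed mice lay far below the control mice, with a log2 fold change of -2.56 ± 0.23 (SE) and an adjusted p of 0.000321 (edgeR). Snx30, a sorting nexin, had -1.01 ± 0.26 (SE) and the copper transporter Slc31a2 -1.05 ± 0.28 (SE), with adjusted p-values of 0.0177 and 0.0201 (edgeR).

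Markers of other cells were counted at far lower levels than those of hepatocytes, of which Tat, Pck1, Cyp2e1 and Apoa1 were upregulated. Summed levels with ethanol and in controls were 132 to 179 and 157 to 173 CPM for 11 Kupffer cell or macrophage markers (Cd68 higher), 109.9 to 193 and 128 to 143 CPM for 9 endothelial markers (Lyve1 and Cdh5 higher, Kdr, Tek and Oit3 lower), and 144 to 168 and 134 to 171 CPM for 8 stellate cell markers (Col1a1 and Col3a1 lower). The 6 cholangiocyte markers summed to 58.5 to 76.2 and 32.4 to 74.2 CPM (Sox9 higher), and the 9 markers of T, B and NK cells to 1.11 to 1.76 and 3.15 to 3.72 CPM (Cd4 and Ms4a1 lower). Ms4a1, at 0.0695, 0 and 0 CPM with ethanol, passed the filter on low counts only through the control mice, so it had to differ. Erythroid markers summed to 579 to 864 against 179.8 to 219.7 CPM, with the globin genes Hba-a1, Hba-a2, Hbb-bs and Hbb-bt higher. Neutrophil markers summed to 2.71 to 13.7 against 1.15 to 1.63 CPM, with S100a8, S100a9 and Retnlg higher, Mpo at 0 in all ethanol-exposed mice and Ly6g at 0 in 5 of the 6 libraries. In control mice S100a8 reached at most 0.0486 CPM and Retnlg 0.0852 CPM. Both passed the filter on low counts only through the ethanol-exposed mice, so they had to differ. Pancreas markers summed to 9.75 to 11.7 against 17.7 to 22.2 CPM. Cela1 made up most of each sum, with 9.32, 8.83 and 11.0 CPM in the ethanol-exposed mice and 17.2, 21.6 and 18.6 CPM in the control mice, while Pnlip, Amy2a5, Prss2 and Ctrb1 were highest in ethanol mouse 2 at no more than 0.703 CPM. Scaled by library size alone, 1 hepatocyte marker was upregulated (Tat), and Cd68 was at 0.46 on the log2 scale with an adjusted p of 0.267 (edgeR). With this scaling, 4 of 11 Kupffer cell or macrophage markers, 4 of 9 endothelial markers and 4 of 8 stellate cell markers were downregulated. So were 1 of 6 cholangiocyte markers, 2 of 7 tested T, B and NK cell markers and the pancreas marker Cela1, where 32.2% of all genes were. The globin genes, 4 of 5 tested erythroid markers, and 3 of 4 tested neutrophil markers were upregulated. So were 1 endothelial marker (Lyve1) and 1 cholangiocyte marker (Sox9), where 5.06% of all genes were. The part of these shifts in the Mup values was not tested.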

How the data were processed

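Liver RNA of 6 mice was analysed from the deposited data, which hold for each of 28880 genes raw read counts and FPKM values per library. Per the authors' methods, reads with adaptors, low quality or ambiguous bases were removed and the remainder aligned to the mouse genome; the authors then counted reads per gene, giving the count columns, and normalised them for length and depth, giving the deposited FPKM. The processing notes name GRCm38 and mm10. The aligner, counter, strand setting and treatment of reads that fit several genes are not given in the sources used here. The table's coordinates are printed as given: of its 27049 gene IDs found in GENCODE M21 (GRCm38), 606 have the same start, and 6 of the 44 members do, so no sequence was read by coordinate. There was 1 count column of no library, which was not used.

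Groups were taken from the labels. Libraries held 60514417 to 74210869 counts, and the replicates of a group differed beyond sampling noise. Counts were filtered with filterByExpr, scaled by TMM and tested by quasi-likelihood in edgeR, p-values being adjusted after Benjamini and Hochberg over all 16717 genes (R 4.3.3, edgeR 4.0.16, limma 3.58.1, DESeq2 1.42.0), after a test on simulated data. The threshold was that of the study, an adjusted p of 0.05 and a log2 fold change of 1. Summed rows got no p, and the spread was computed on log2(CPM + 0.1). Groups of 3 were not examined for outlying samples.

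The Mup rows, gene lists and rules were chosen with earlier results of these data known. Every tested Mup row is accounted for, and of the lists the genes called are named, plus Ghr, Stat5a, Stat5b, Igf1, Zhx2, Nr3c1 and Thrb; a few further genes are not reported here. Alternatives were other scalings, no filter, DESeq2, limma on log2(FPKM + 1) and log2(FPKM + 0.1), a block on the replicate number, each library left out and the adjusted p alone. Merging Mup-ps3 with Mup-ps11 and leaving out ethanol mouse 2 with control mouse 1 were added after the data had been seen. The labels name the mice but no litters or extraction days.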

Additional observations from a re-analysis of the deposited data

How the results depend on the processing

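The scaling decided most Mup values. The log2 fold change of the Mup sum, 0.78 with TMM, lay between 0.67 and 0.78 with size factors, TMM without the Mup rows, upper quartiles, no filter or DESeq2, but was 0.091 with library size alone and 0.068 in limma on log2(FPKM + 1) and on log2(FPKM + 0.1). It was 0.58 to 1.03 with each library left out. The number of members called higher, 3 of 39 tested, was 0 with library size alone and 0 and 0 in the limma fits. It was 6 by DESeq2, 5 by the adjusted p alone, 6 without ethanol mouse 2 and control mouse 1 together, and 1 to 10 with each library left out. Of all 16717 genes, 1738 were called higher, 846 with library size alone and 408 and 735 in the limma fits. DESeq2 called 1884 and the adjusted p alone 3598. All genes called higher were 1294 of 16970 without those 2 mice, and 1490 to 1920 with each library left out. The number of members called lower, 2, was 4 with library size alone, 1 and 4 in the limma fits and 4 without those 2 mice. It was 1 with Mup-ps3 and Mup-ps11 merged, and 2 to 5 with each library left out. Of all genes 2301 were called lower, 5385 with library size alone and 1704 and 4964 in the limma fits. All genes called lower were 1476 without those 2 mice, and 1713 to 2902 with each library left out. With limma, which does not rescale the FPKM, the cause of the lower values was not tested.

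The sign of single copies turned as well. With library size alone Mup7 was at -0.035, Mup8 at -0.20, Mup11 at -0.26, Mup12 at -0.25, Mup17 at -0.14 and Mup18 at -0.012. In limma on log2(FPKM + 1) Mup7 was at -0.075, Mup8 at -0.11, Mup11 at -0.38, Mup12 at -0.35, Mup17 at -0.11, Mup18 at -0.15 and Mup22 at -0.076, and the smaller pseudocount gave the same values as rounded here. With each library left out, Mup11 ranged from -0.37 to 0.94, Mup12 from -0.017 to 0.75, Mup18 from -0.17 to 1.17, Mup19 from -0.12 to 1.83 and Mup5 from -0.59 to 0.10. Over all alternatives for the named members, 336 values stayed on the same side of 0 and of the adjusted p threshold, 25 turned in sign, 25 lost and 30 gained the adjusted p.

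The replicate numbers do not pair the mice (correlations of same-numbered deviations -0.042, -0.027 and -0.0075). With the replicate number as a block, 1 member was called lower and 4 higher (2000 and 1518 of all 16717 genes), and the sum was at 0.75. Over all genes, 4039 were called in the main comparison, 6231 with library size alone, 2112 in limma on log2(FPKM + 1), and 3205 to 4822 with each library left out. Of the list genes 36 were called, and 59 by the adjusted p alone. The lists held 28, 18, 12, 11, 24 and 21 tested genes, some of them listed more than once. Over all genes 10.4% were called higher and 13.8% lower, and by the adjusted p alone 21.5% and 21.5%. Limits are the 3 mice per group, the fasting of one group only as far as stated, and reads that several Mup copies share: counts of single central copies depend on an assignment of reads that is not described, and depth does not lessen this. Counts of 30 or fewer per library, as in Mup-ps2 and Mup-ps3, leave little precision.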
